A study of Mus musculus with 9 samples.

Results

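The miR-144 and miR-451a cluster is a pair of neighbouring microRNA genes that red cell precursors transcribe as one unit. Its mature products, mmu-miR-451a, mmu-miR-144-3p and mmu-miR-144-5p, were followed in small extracellular vesicles of mouse serum. They were taken by name as 3 of the 1064 known microRNAs that were counted, or 3 of 1169 with the predicted ones included. All 3 had enough reads to be tested, among 414 microRNAs that did. Each of the 3 fell in high fat diet-fed mice that overexpressed Sirt3 in adipose tissue, when set against high fat diet-fed wild-type mice, by 0.83 to 1.21 on the log2 scale. In that comparison 8.94% of the 414 passed the test, 7.49% as lower. The call of miR-451a was narrow (adjusted p = 0.0488 by edgeR) and ended in 13 of 19 alternative fits. With a batch label as a term in the fit, neither arm of miR-144 passed. Against chow, miR-144-5p fell in both diet groups, while miR-451a did not pass the test in either. Lower calls against chow made up 16.2% of the 414 in wild-type mice on high fat diet and 19.6% in those overexpressing Sirt3. The balance between the arms of the miR-144 hairpin also differed between chow and high fat diet. So did that of 35% and 33% of 103 precursors in these comparisons. The arm calls for miR-144 ended without the filter on low counts.

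Small RNA was sequenced from vesicles precipitated out of serum, with 3 libraries in each of 3 groups. The first group was wild type on chow (chow WT), and the second was wild type on high fat diet (HFD WT). The third, HFD Sirt3 AKI, had the same diet and adipose-specific overexpression of Sirt3, a mitochondrial deacetylase. The series title speaks of male mice. No source used here gives the promoter behind the adipose-specific expression, the age of the mice, the length of the diet or any pooling of animals. The HFD WT libraries are labelled wild type, but a code for a Sirt3 knock-in stands in their library names and not in those of chow WT, and the HFD Sirt3 AKI names carry the same code with a further suffix. Diet and mouse line therefore cannot be told apart between chow WT and HFD WT. A batch label sets replicates 2 and 3 of HFD Sirt3 AKI apart from the other 7 libraries. Nothing in the labels says that the samples of a group came from separate animals. The p-values therefore measure the spread between samples, which may be technical.

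The cluster is switched on by the red cell factor GATA1 and is among the most active microRNA loci of maturing red cells. The miR-451a hairpin is too short for Dicer, so Argonaute 2 cuts it and the mature strand is then trimmed. The miR-144 hairpin follows the usual Dicer route and gives one product from each arm. In red cells, miR-451a is known to restrain 14-3-3 zeta, and miR-144-3p is known to restrain the antioxidant factor NRF2. Red cells keep these microRNAs and release them on lysis, and for this reason miR-451a set against miR-23a-3p is a common gauge of haemolysis in serum and plasma.

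The mature sequences are shown because seeds and hairpin shape set the 3 products apart. Seeds, which are bases 2 to 8 from the 5′ end, stand in capitals. All 3 names matched the RefSeq table, as did 916 of the 1064 known names, and sequences and coordinates are those of RefSeq on GRCm38.p6. The deposited tables carry no coordinates, and the submitters' processing notes name the older build mm8. The list also holds miR-101a-3p, the only other of these 916 that shares bases 2 to 7 with miR-144-3p.
mmu-miR-451a: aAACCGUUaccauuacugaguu
mmu-miR-144-3p: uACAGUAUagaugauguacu
mmu-miR-144-5p: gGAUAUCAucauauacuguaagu
mmu-miR-101a-3p: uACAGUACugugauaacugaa

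The 3 members have 3 different seeds, and none of the other known microRNAs with a matched sequence shares bases 2 to 8 with any of them. The seeds of miR-144-3p and miR-101a-3p are the same at 6 of 7 bases and differ by U8C, with miR-144-3p first and positions counted from the 5′ end. All members lie on the plus strand of chromosome 11. The arms of miR-144 are at chr11:78073010-78073032 (5p, 23 bases) and chr11:78073047-78073066 (3p, 20 bases), and miR-451a is at chr11:78073186-78073207 (22 bases). The hairpins are separated by 99 bases outside any protein-coding gene. Eral1, on the minus strand, lies 134 bases beyond the miR-451a hairpin, and Flot2 ends 12570 bases before the miR-144 hairpin. The gene Mir451b lies on the opposite strand over the miR-451a hairpin, and miR-451b was not analysed here.

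The hairpins themselves are shown with the mature strands in capitals, since they differ in how the mature strand sits.
Mir144: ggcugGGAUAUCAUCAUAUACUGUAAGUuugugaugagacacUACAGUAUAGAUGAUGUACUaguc
Mir451a: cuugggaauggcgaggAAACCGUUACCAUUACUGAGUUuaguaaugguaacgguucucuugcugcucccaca

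The Mir144 hairpin spans chr11:78073005-78073070, and its predicted fold has 27 base pairs and a loop of 6 bases. Its mature strands lie wholly on opposite sides of that loop. The Mir451a hairpin spans chr11:78073170-78073241, and its fold has 30 pairs with one unbroken stem of 17. The mature miR-451a covers positions 17 to 38 of it, with 18 bases before the loop and all 4 loop bases. Reads of one miR-144 arm therefore have a partner arm to be set against, while miR-451a has none.

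Library totals ranged from 225002 to 306974 counts (chow WT), from 1953935 to 2162009 (HFD WT) and from 1729416 to 2973432 (HFD Sirt3 AKI). Levels are counts for each 1000000 of a library total scaled by TMM, the trimmed mean of M values (normalised CPM), and the mean scaling factor was 1.31, 0.787 and 0.978 in these groups. The scaling matters for any comparison with chow: over all tested microRNAs, the median log2 fold change of HFD WT over chow WT was 0.15 with it and -0.57 with library totals. Replicate 2 of HFD Sirt3 AKI stood apart, with 3.48% of counts in 3 hepatocyte microRNAs against 0.868% to 1.40% in the other two of its group. No pair of replicates agreed within counting noise. In serum, a microRNA's level cannot tell fewer vesicles of one origin from fewer copies in each.

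miR-451a, the product cut by Argonaute 2, was one of the most abundant microRNAs of these vesicles. It was counted 19838, 14935 and 12013 times in the chow WT libraries. The HFD WT counts were 81205, 111604 and 79185, and those of HFD Sirt3 AKI were 109757, 42296 and 65304. It ranked between 4th and 9th by count in every library.

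After scaling, miR-451a stood at 50595, 38973 and 40147 normalised CPM in the libraries of chow WT. The HFD WT libraries held 45173, 72717 and 52564, and the HFD Sirt3 AKI libraries held 39553, 22376 and 34193. The HFD WT and chow WT values overlapped. All 3 HFD Sirt3 AKI libraries were below every HFD WT library, while replicate 1 lay within the chow WT range. Group means were 43238 ± 6398 for chow WT, 56818 ± 14256 for HFD WT and 32041 ± 8789 for HFD Sirt3 AKI (SD, n = 3 in each).

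miR-144-3p, the arm that usually guides Argonaute to its targets, was the least abundant member. It was counted 118, 89 and 80 times in the chow WT libraries, 568, 535 and 368 times in those of HFD WT, and 398, 263 and 222 times in those of HFD Sirt3 AKI. Scaled, the chow WT libraries held 301, 232 and 267 normalised CPM and the HFD WT libraries 316, 349 and 244. The HFD Sirt3 AKI libraries held 143, 139 and 116, below all 6 others. Means were 267 ± 34.4, 303 ± 53.4 and 133 ± 14.6 (SD, n = 3), and the chow WT and HFD WT ranges overlapped. Relative to library totals they did not: miR-144-3p was at 304 to 384 TPM in the libraries of chow WT and at 188 to 264 in those of HFD WT.

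miR-144-5p, the partner arm, had 752, 615 and 581 counts in the libraries of chow WT. HFD WT had 1875, 1794 and 1484, and HFD Sirt3 AKI had 1617, 725 and 799. This came to 1918, 1605 and 1942 normalised CPM for chow WT, to 1043, 1169 and 985 for HFD WT, and to 583, 384 and 418 for HFD Sirt3 AKI. Here the 3 groups did not overlap at all, with chow WT highest and HFD Sirt3 AKI lowest. The means were 1821 ± 188, 1066 ± 94.0 and 462 ± 106 normalised CPM (SD, n = 3).

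**Figure D1:**
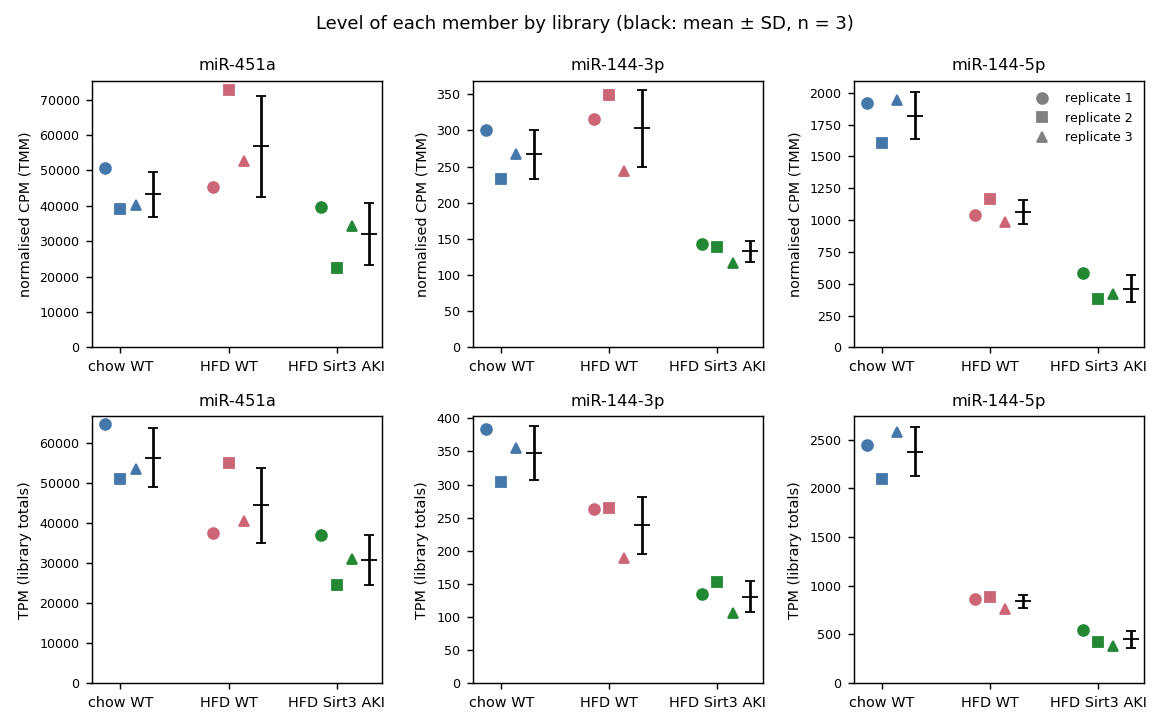
Levels of miR-451a, miR-144-3p and miR-144-5p in each of the 9 libraries, as normalised CPM (upper panels) and as TPM relative to library totals (lower panels), with points for libraries and black bars for the group mean ± SD. miR-144-5p separates all 3 groups on both scales, while miR-144-3p overlaps between chow WT and HFD WT on the upper scale and not on the lower.

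The comparison of HFD Sirt3 AKI with HFD WT asks what adipose Sirt3 changes under the same diet. All 3 members fell, where 8.94% of the 414 tested microRNAs passed the test in either direction, 7.49% as lower and 1.45% as higher. miR-144-5p fell by 1.21 on the log2 scale (SE 0.17, adjusted p = 0.00333 by edgeR's quasi-likelihood test), or 2.31-fold. miR-144-3p fell by 1.19 (SE 0.18, adjusted p = 0.00432). By p-value these were the third and the fourth of all tested microRNAs. miR-451a fell by 0.83 (SE 0.22), and its adjusted p of 0.0488 lay just under the threshold of 0.05. Over all tested microRNAs the median was -0.021.

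The batch label and the narrow call of miR-451a limit this comparison. Within the larger batch, which leaves replicate 1 as the only HFD Sirt3 AKI library and assumes that it varies like the other groups, the log2 fold change of miR-144-5p was -0.73 and that of miR-144-3p was -0.94 (adjusted p = 0.0136 for each by edgeR). With batch as a term in the fit to all libraries, neither arm passed (-0.87 with adjusted p = 0.0821, and -1.08 with adjusted p = 0.110). Their calls also ended when only these groups were fitted (adjusted p = 0.0548 and 0.0557). The call of miR-451a ended in 13 of 19 alternatives, among them the larger batch (-0.38, adjusted p = 0.286) and the fit without HFD WT replicate 2, its highest library (-0.60, adjusted p = 0.213).

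The number of microRNAs called in this comparison also moved with the processing, from the 37 above to 3 with only these groups fitted and to 1 with batch as a term. Leaving out replicate 1 of HFD Sirt3 AKI raised it to 102, and leaving out HFD WT replicate 3 lowered it to 13. With library totals its split of 6 higher and 31 lower became 36 and 11, and the members' values there were -0.90 for miR-144-5p, -0.87 for miR-144-3p and -0.53 for miR-451a. Over the fits with 1 library left out, miR-144-5p stayed between -1.40 and -1.04 and miR-144-3p between -1.31 and -1.06, and both passed in every one of the 9.

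Diet was addressed by HFD WT against chow WT, with mouse line not separable from it. miR-144-5p alone among the members changed. It fell by 0.77 on the log2 scale (SE 0.17, adjusted p = 0.00453 by edgeR), or 1.71-fold. Of all tested microRNAs, 37.7% passed in this comparison, 16.2% as lower and 21.5% as higher, a split of 89 higher and 67 lower that became 20 and 143 with library totals. The log2 fold change of miR-451a was 0.39 (SE 0.22, adjusted p = 0.199), and that of miR-144-3p was 0.18 (SE 0.18, adjusted p = 0.483).

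The signs of these last values depended on the scaling. With library totals, miR-451a was at -0.34 (adjusted p = 0.172) and miR-144-3p at -0.55 (adjusted p = 0.0536), and on log2(TPM + 1) limma gave miR-144-3p -0.55 with an adjusted p of 0.0467. miR-451a passed as higher without the filter on low counts (0.60, adjusted p = 0.00134), in the larger batch (0.45, adjusted p = 0.00607) and without replicate 2 of HFD Sirt3 AKI (0.50, adjusted p = 0.0130). miR-144-5p passed as lower in all 19 alternatives, between -1.51 and -0.57.

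HFD Sirt3 AKI against chow WT spans both differences and shares its libraries with the comparisons above, so it is no independent test of them. Of all tested microRNAs, 39.9% passed here, 19.6% as lower and 20.3% as higher. This split of 84 higher and 81 lower became 40 and 129 with library totals. miR-144-5p fell by 1.98 on the log2 scale (SE 0.17, adjusted p = 1.12e-05 by edgeR), which is 3.94-fold. miR-144-3p fell 2.01-fold (SE 0.18 on the log2 scale, adjusted p = 0.00136). The log2 fold change of miR-451a was -0.43 (SE 0.22, adjusted p = 0.150).

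Both arms of miR-144 passed as lower in all 19 alternatives of this comparison, miR-144-5p between -2.42 and -1.45 and miR-144-3p between -1.42 and -0.70. For miR-451a the result turned on the scaling and the batch. It passed as lower with library totals (-0.87, adjusted p = 0.00324), was at 0.071 in the larger batch alone (adjusted p = 0.805), and was at -0.59 without replicate 1 of HFD Sirt3 AKI (adjusted p = 0.0498).

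**Figure D2:**
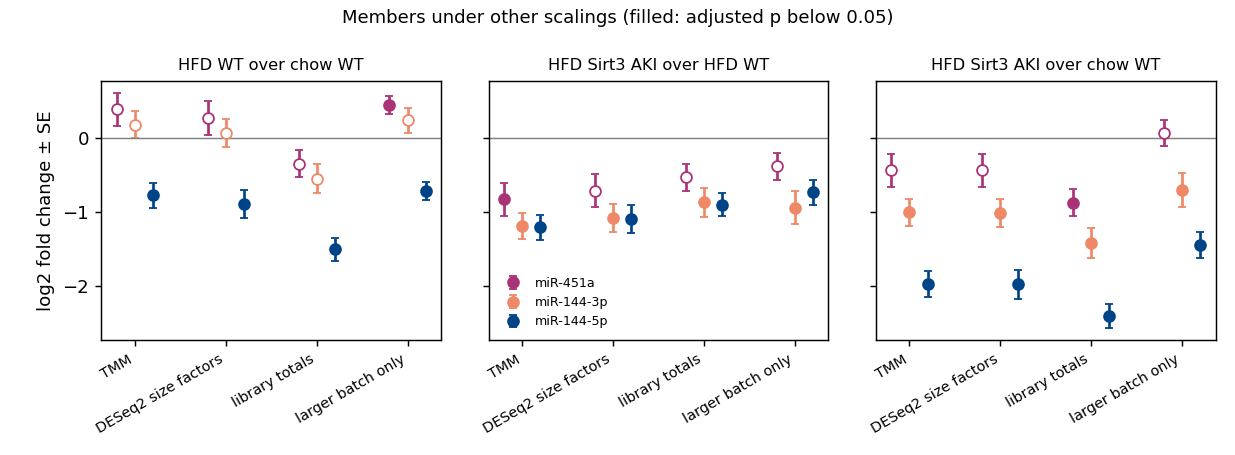
Log2 fold change ± SE of the 3 members in each comparison under 3 scalings and in the larger batch alone, with filled points for an adjusted p below 0.05. miR-144-5p is below 0 and filled throughout, while miR-451a in HFD WT over chow WT moves from 0.39 with TMM to -0.34 with library totals.

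As a share of all counts, which uses the library total and no TMM factor, the cluster made up 6.75%, 5.33% and 5.63% of the chow WT libraries. It made up 3.87%, 5.62% and 4.15% of those of HFD WT, and 3.76%, 2.50% and 3.14% of those of HFD Sirt3 AKI. The HFD Sirt3 AKI shares lay below those of all 6 other libraries, and the chow WT and HFD WT shares overlapped. Means were 5.90 ± 0.744%, 4.54 ± 0.939% and 3.14 ± 0.628% (SD, n = 3). Two-sided exact permutation tests gave p = 0.1 for HFD Sirt3 AKI against either other group and p = 0.2 for HFD WT against chow WT, and 0.1 is the smallest p that 3 libraries against 3 allow. Nearly all of this share is miR-451a. miR-486a-5p and miR-486b-5p have identical counts, and both enter the library total. With them left out of the total, HFD WT differed from chow WT by -0.83 percentage points (exact permutation p = 0.5), against -1.36 with them.

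The arms of miR-144 come from 1 hairpin, so their ratio within a library uses neither the scaling factor nor the library total. The 5p arm was the more abundant in every library. In chow WT there were 6.37, 6.91 and 7.26 reads of miR-144-5p for each read of miR-144-3p. HFD WT had 3.30, 3.35 and 4.03, and HFD Sirt3 AKI had 4.06, 2.76 and 3.60. All chow WT ratios lay above all ratios of the high fat diet groups, which overlapped each other.

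Expressed as a share, miR-144-5p took 86.4% of the reads of both arms in chow WT replicate 1, with a 95% Clopper-Pearson interval from 84.0% to 88.6% on 870 reads. In HFD WT replicate 1 the share was 76.7%, with an interval from 75.0% to 78.4% on 2443 reads. These intervals cover counting error only, since reads without molecular identifiers are not independent molecules. Group means were 87.2 ± 0.738% (chow WT), 78.0 ± 1.88% (HFD WT) and 77.3 ± 3.53% (HFD Sirt3 AKI), as SD with n = 3.

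**Figure D3:**
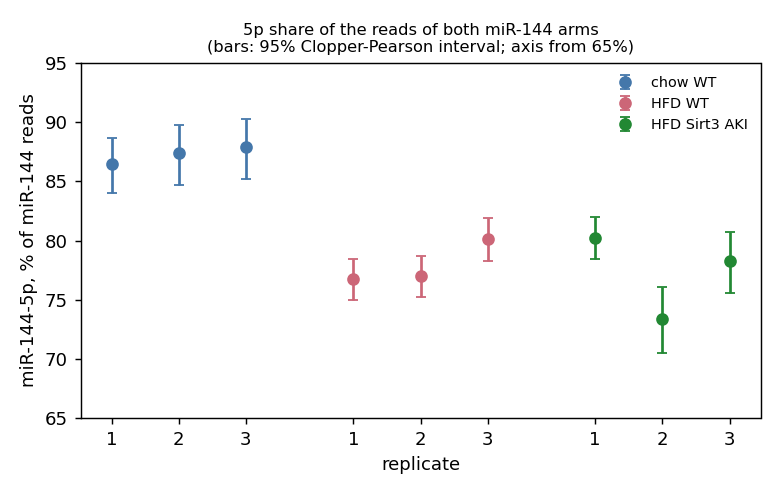
Share of miR-144 reads that came from the 5p arm in each library, in percent, with 95% Clopper-Pearson intervals for counting error. The chow WT libraries lie between 86.4% and 87.9% and the 6 high fat diet libraries between 73.4% and 80.2%.

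For 103 precursors both arms passed the filter, and limma compared between groups the log2 ratio of the less to the more abundant arm, which for miR-144 is 3p to 5p. For miR-144 it rose by 0.94 in HFD WT over chow WT (SE 0.22, adjusted p = 0.00934), or 1.92-fold, and by 0.99 in HFD Sirt3 AKI over chow WT (SE 0.22, adjusted p = 0.00935). Arm ratios changed in 35% of precursors in the first of these comparisons, 13.6% towards the less abundant arm and 21.4% away from it, and in 33% in the second, 9.71% towards it. The change at miR-144 was the 39th by size in HFD WT over chow WT, so a shift of this size was common, and the median change over all precursors was -0.30. Between HFD Sirt3 AKI and HFD WT the difference was 0.050 (SE 0.22, adjusted p = 0.954), and limma called 0 of 103 precursors there.

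The arm shift in HFD WT over chow WT passed in each fit with 1 library left out, between 0.89 and 1.03. Its call ended without the filter on low counts (adjusted p = 0.108), and that of HFD Sirt3 AKI over chow WT ended there too (adjusted p = 0.0869), with batch as a term (0.75, adjusted p = 0.131) and within the larger batch (0.75, adjusted p = 0.201). Library totals were lower in all chow WT libraries than in the other groups, and the part of depth or library preparation in the arm shift was not tested.

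**Figure D4:**
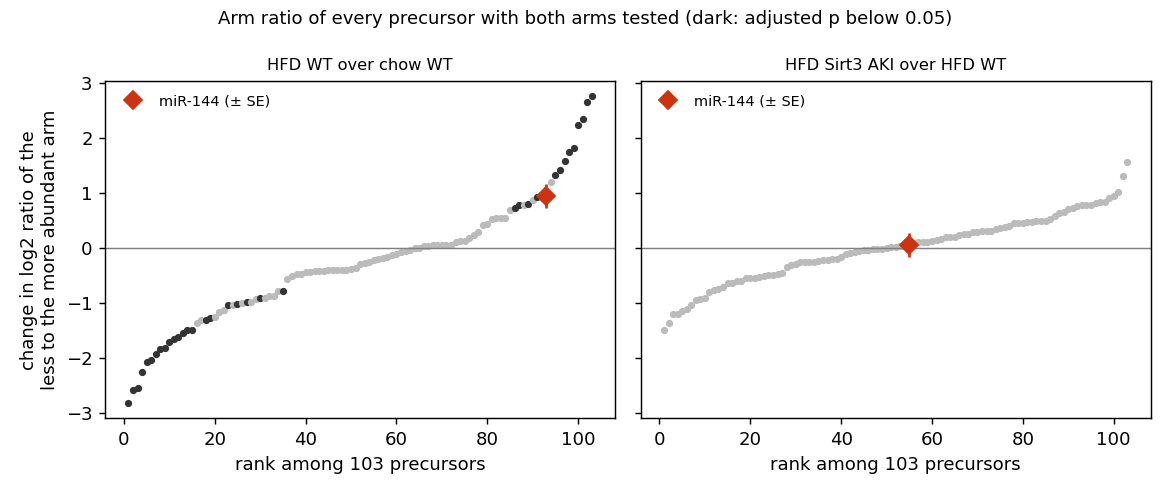
Change in the log2 ratio of the less to the more abundant arm for 103 precursors, ordered by value, with dark points for an adjusted p below 0.05 and miR-144 marked with its SE. miR-144 is at 0.94 in HFD WT over chow WT and at 0.050 in HFD Sirt3 AKI over HFD WT.

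To ask whether the cluster kept its proportions, the counts of every other microRNA were set against miR-451a of the same library. Because miR-451a is the denominator of every ratio, a change in it alone moves all of them, and the calls are not independent. There were 42.5 ± 5.35 reads of miR-144-5p for each 1000 of miR-451a under chow WT, 19.3 ± 3.54 under HFD WT and 14.7 ± 2.45 under HFD Sirt3 AKI (SD, n = 3). The log2 ratio of miR-144-5p to miR-451a fell by 1.15 in HFD WT over chow WT (SE 0.25, adjusted p = 0.00509 by limma) and by 1.54 in HFD Sirt3 AKI over chow WT (adjusted p = 4.79e-04). Between HFD Sirt3 AKI and HFD WT it was -0.39 (adjusted p = 0.245).

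Of the 413 ratios tested, 21.5% passed in HFD WT over chow WT (4.12% higher, 17.4% lower), 31.7% in HFD Sirt3 AKI over chow WT (23.2% higher, 8.47% lower) and 12.8% in HFD Sirt3 AKI over HFD WT, all of them higher. The ratio of miR-144-3p passed in none of them. It stood at 6.19 ± 0.408 reads for each 1000 of miR-451a with chow WT, 5.48 ± 1.31 with HFD WT and 4.41 ± 1.57 with HFD Sirt3 AKI (SD, n = 3). Its log2 ratio differed by -0.21, -0.34 and -0.55 in the comparisons of HFD WT with chow WT, HFD Sirt3 AKI with HFD WT and HFD Sirt3 AKI with chow WT (adjusted p = 0.693, 0.397 and 0.210 by limma). Without replicate 2 of HFD Sirt3 AKI the last of these passed at -0.82 (adjusted p = 0.0289).

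Other microRNAs that red cells carry were mostly higher in HFD WT than in chow WT, the opposite sign to miR-144-5p. A list of 10 was used, of which miR-486a and miR-486b have identical counts in each arm and so stand for 8 distinct measurements. The identical rows are counted separately in the calls and medians of this list, here and below. In HFD WT over chow WT, 8 of the 10 rose, none fell and miR-15a-5p and miR-363-3p did not pass, with a median log2 fold change of 1.42 against 0.15 over all tested microRNAs. Higher calls made up 21.5% of all tested there. Lists for other cell types also held higher calls in this comparison with TMM scaling: 2 of 2 lymphocyte microRNAs (median 1.25), 2 of 2 endothelial (0.93), 2 of 3 myeloid and platelet (0.35) and 2 of 3 striated muscle microRNAs (0.44). None of 3 hepatocyte microRNAs was higher and 1 was lower (median -0.34), and neither brain microRNA passed. The summed share of counts of the 10 red cell microRNAs was 38.3 ± 0.723% (chow WT), 55.7 ± 1.15% (HFD WT) and 52.5 ± 4.83% (HFD Sirt3 AKI), as SD with n = 3. The identical counts of miR-486a and miR-486b both enter this sum and the library total, which inflates the shares and their rise. miR-486a-5p alone held a mean of 7.99% (chow WT), 13.4% (HFD WT) and 14.0% (HFD Sirt3 AKI), and miR-486b-5p the same.

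miR-486a-5p, whose host is the red cell gene Ank1, went from 61277 normalised CPM with chow WT to 170173 with HFD WT, a log2 fold change of 1.47 (adjusted p = 8.11e-06 by edgeR). miR-92a-3p of the miR-17 to miR-92 cluster went from 3569 to 16185, a log2 fold change of 2.18 (adjusted p = 4.47e-06). With library totals these remained called, at 0.74 and 1.44, while miR-16-5p (0.35, adjusted p = 0.0589) and miR-93-5p (0.15, adjusted p = 0.268) did not pass.

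Where the cluster fell, in HFD Sirt3 AKI over HFD WT, 3 of the 10 listed microRNAs fell, none rose and 7 did not pass, with a median of -0.36 against -0.021 over all tested microRNAs, of which 7.49% were lower and 1.45% higher. Those that fell were miR-93-5p (-0.84, adjusted p = 0.00559 by edgeR) and the 3p arms of miR-486a and miR-486b, which are 1 measurement (-0.50, adjusted p = 0.0495). The call of miR-93-5p ended in 2 of 19 other fits (-0.92 to -0.54) and stood in all 9 with 1 library left out. The call of miR-486a-3p ended in 17 of 19 other fits (-0.58 to -0.19, adjusted p up to 0.400), among them 8 of the 9 with 1 library left out, all but that without HFD Sirt3 AKI replicate 1. Over chow WT, HFD Sirt3 AKI had 7 that rose, none that fell and 3 that did not pass, with a median of 1.04 against 0.058 over all tested, of which 20.3% were higher. One of the 7, miR-16-5p (0.51, adjusted p = 0.0387), lost its call in 12 of 19 other fits, 7 of them with 1 library left out (all but HFD WT replicate 1 and HFD Sirt3 AKI replicate 2), and was at 0.049 by limma on TPM. In the same comparison miR-93-5p was at 0.048, and at -0.39 with library totals.

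Set against miR-451a, 7 of the 10 rose in HFD WT over chow WT, 1 in HFD Sirt3 AKI over HFD WT and 8 in HFD Sirt3 AKI over chow WT. Over all 413 ratios to miR-451a, 4.12%, 12.8% and 23.2% were higher, taking HFD WT over chow WT, HFD Sirt3 AKI over HFD WT and HFD Sirt3 AKI over chow WT in turn. Among the 8, the call of miR-363-3p (1.43, adjusted p = 0.0378 by limma) ended in 10 of 15 other fits (0.89 to 1.79, adjusted p up to 0.216), 6 of them without 1 library: HFD Sirt3 AKI replicate 3, chow WT replicate 2 or 3, or any of HFD WT. miR-363-3p was near the floor in chow WT, with 11, 2 and 5 counts. The log2 ratio of miR-486a-5p to miR-451a rose by 1.10 in HFD WT over chow WT (adjusted p = 0.00476 by limma). For each read of miR-451a there were 1.43 ± 0.104 reads of miR-486a-5p (chow WT), 3.10 ± 0.617 (HFD WT) and 4.67 ± 0.939 (HFD Sirt3 AKI), as SD with n = 3. miR-92a-3p was the one listed microRNA that rose against miR-451a in HFD Sirt3 AKI over HFD WT, by 1.19 (adjusted p = 0.0175), and this call ended in 6 of 15 other fits, among them those with batch as a term (0.93, adjusted p = 0.706) and without HFD WT replicate 2, HFD WT replicate 3 or HFD Sirt3 AKI replicate 3. miR-16-5p rose against it by 0.71 in HFD WT over chow WT (adjusted p = 0.0435), a call that ended in 12 of 15 other fits (0.55 to 0.87, adjusted p up to 0.179), among them 8 of the 9 with 1 library left out, HFD WT replicate 2 being the exception.

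**Figure D5:**
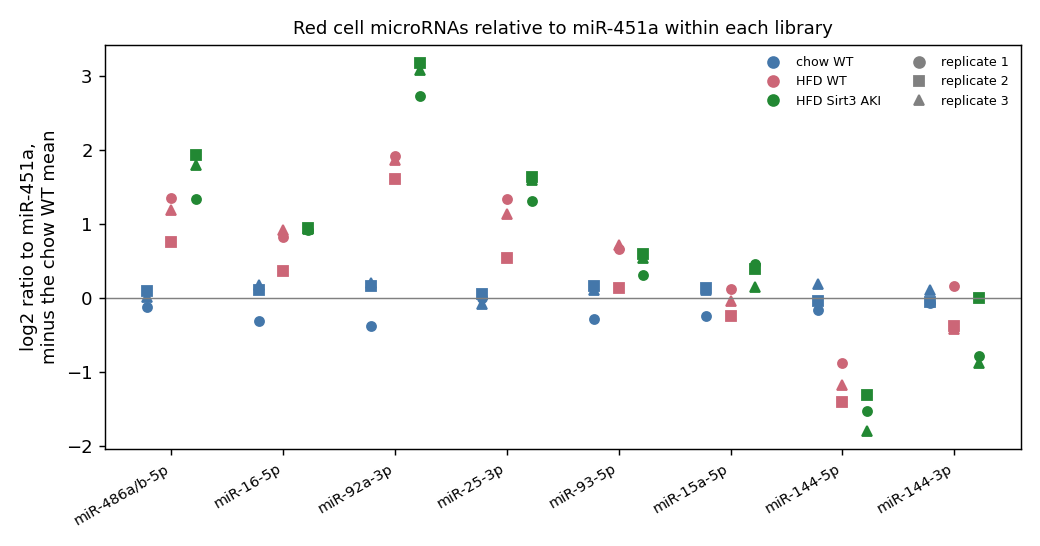
Log2 ratio to miR-451a of the same library for 6 microRNAs of the red cell list and the miR-144 arms, minus the chow WT mean, with a point for each library. The points of miR-144-5p lie below those of chow WT in all 6 high fat diet libraries and the points of miR-486a-5p and miR-92a-3p lie above them.

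The haemolysis gauge, reads of miR-451a for each read of miR-23a-3p, was 8.92, 6.93 and 7.78 in chow WT. It was 7.74, 10.5 and 8.84 with HFD WT, and 7.06, 4.51 and 6.48 with HFD Sirt3 AKI. The HFD Sirt3 AKI libraries lay below every HFD WT library, and chow WT overlapped both. As a log2 ratio of miR-23a-3p to miR-451a, the differences were -0.19 in HFD WT over chow WT, 0.60 in HFD Sirt3 AKI over HFD WT and 0.41 in HFD Sirt3 AKI over chow WT. None passed (adjusted p = 0.626, 0.0937 and 0.227 by limma). The difference in HFD Sirt3 AKI over HFD WT passed in 1 of 15 other fits, with 1 library left out (adjusted p = 0.0464 by limma). miR-23a-3p itself was at 5485 ± 283, 6234 ± 593 and 5279 ± 322 normalised CPM (SD, n = 3) and passed in no comparison. The part of red cell lysis in the members' levels was not tested.

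Markers of other cell types were summed in the same libraries. The summed share of 3 hepatocyte microRNAs (miR-122-5p, miR-192-5p and miR-194-5p) ranged from 1.48% to 1.82% (chow WT), from 0.577% to 0.650% (HFD WT) and from 0.868% to 3.48% (HFD Sirt3 AKI). That of 3 myeloid and platelet microRNAs (miR-223-3p and both arms of miR-142a) ranged from 1.93% to 2.08%, from 1.62% to 1.67% and from 1.44% to 1.73%. The lymphocyte pair of miR-150-5p and miR-342-3p held 0.554% to 0.585%, 0.714% to 0.907% and 1.13% to 1.24%. In the same order of groups, the endothelial arms of miR-126a held 2.60% to 3.08%, 3.05% to 3.30% and 2.46% to 3.05%. The striated muscle list (miR-1a-3p, miR-133a-3p and miR-206-3p) held 0.880% to 0.989%, 0.773% to 0.945% and 0.722% to 1.27%, and the brain pair of miR-9-5p and miR-124-3p held 0.0418% to 0.0972%, 0.0108% to 0.0256% and 0.0114% to 0.432%. In HFD Sirt3 AKI over HFD WT, both arms of miR-126a fell by 0.51 (3p) and 0.68 (5p) on the log2 scale and miR-142a-3p fell by 0.50, while miR-122-5p rose by 1.68 (adjusted p = 0.00635, 0.00473, 0.0195 and 0.0412 by edgeR). No other marker of these lists passed there. With batch as a term in the fit, only 1 of all tested microRNAs was called, as lower. The call of miR-122-5p therefore ended, and at most 1 of the others stood. miR-122-5p was at 5679, 25960 and 11221 normalised CPM in HFD Sirt3 AKI replicates 1, 2 and 3. In the HFD WT libraries it was at 4148 to 4761. No listed marker was at 0 in a whole group, and their part in the cluster's fall was not tested.

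Across the 9 libraries the members followed each other only in part. On the log2 scale of normalised CPM, Pearson's r was 0.84 between the arms of miR-144, 0.76 between miR-451a and miR-144-3p, and 0.60 between miR-451a and miR-144-5p. With library totals these became 0.93, 0.83 and 0.87. They are descriptions over 9 libraries in 3 groups. Libraries of one group share its condition and much of its depth, so they are not independent points.

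Of 406 microRNAs compared, the one most like miR-451a over these libraries was miR-130a-3p (r = 0.96), followed by miR-130b-3p, miR-15b-5p and miR-23a-3p (each r = 0.91) and let-7i-5p (0.89). miR-144-3p was most like miR-148b-3p (0.94), then let-7f-5p (0.90), miR-5113, miR-7a-5p and miR-17-5p. miR-144-5p was most like miR-185-5p (0.97), then miR-1839-5p, miR-877-5p, miR-186-5p and let-7f-5p (0.95). These lists depended in part on the scaling. With library totals miR-23a-3p fell to rank 69 for miR-451a (r = 0.63), whose other partners ranked 2 to 5. let-7f-5p fell to rank 14 for miR-144-3p and to rank 8 for miR-144-5p. The first of each list, miR-130a-3p, miR-148b-3p and miR-185-5p, then ranked 4, 2 and 3. The members themselves were left out of these lists.

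miR-101a-3p, with a seed 1 base from that of miR-144-3p, stood at 1822 ± 136 normalised CPM (chow WT), 1114 ± 120 (HFD WT) and 1176 ± 556 (HFD Sirt3 AKI), as SD with n = 3. It passed in no comparison in the fit used throughout, by edgeR: the log2 fold change was -0.71 in HFD WT over chow WT (adjusted p = 0.0550), 0.078 in HFD Sirt3 AKI over HFD WT (adjusted p = 0.862) and -0.63 in HFD Sirt3 AKI over chow WT (adjusted p = 0.0779). It passed as lower in 11 of 19 other fits in HFD WT over chow WT (-1.44 to -0.50 over the 19, adjusted p from 1.50e-05 to 0.155), and in 7 of 19 in HFD Sirt3 AKI over chow WT (-1.20 to -0.40). Leaving out HFD Sirt3 AKI replicate 1 gave that call in the former, and leaving out HFD Sirt3 AKI replicate 2 gave it in both (-0.59 and -0.94). Over HFD WT it turned to -0.34 without replicate 2 of HFD Sirt3 AKI.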

How the data were processed

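Small RNA of serum vesicles was sequenced in 9 libraries, 3 for each of 3 groups taken from the labels. The authors deposited whole-number read counts per mature microRNA and the same values as TPM. TPM matched the deposited count per 1000000 of the library total within 5e-05, so it has no length term. Bowtie 0.12.2 and the build mm8 are named without a role, per the submitters' processing notes. No source used here gives the trimming, the microRNA reference or the counting program. Library totals ran from 225002 to 2973432 counts, and the shallow chow WT libraries have the widest counting error.

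MicroRNAs with few reads were dropped by filterByExpr (minimum count 10), and the counts were scaled by TMM and fitted over all 9 libraries with edgeR 4.0.16 in R 4.3.3 (quasi-likelihood). Calls were made where the p adjusted over all 414 tested (Benjamini-Hochberg) was below 0.05. Each SE of an edgeR log2 fold change was worked back from the test, as its absolute value over the square root of the F statistic. Log2 ratios to miR-451a and between arms (pseudocount 0.5) were tested with limma 3.58.1 over all ratios. Shares were compared by exact permutation, also with miR-486a-5p and miR-486b-5p left out of the library total. Folds were predicted with RNAfold 2.7.2. The steps were tested on simulated counts. Alternatives were DESeq2 1.42.0, its size factors, library totals, limma on log2(TPM + 1), pseudocount 1, no filter, identical microRNAs counted once, only the groups compared, batch as a term, the larger batch alone, a replicate block and each library left out. The separate tables of known and predicted microRNAs repeat the full tables. That of the known microRNAs gave the list of known names, and its counts were checked to be the same. All tests used the full counts.

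The members, the red cell list, the cell type markers and the rules were chosen with earlier results of these data known. Named microRNAs are the members, the red cell list, miR-23a-3p, microRNAs sharing a seed or bases 2 to 7 with a member, and the 5 most correlated with each member.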

Additional observations from a re-analysis of the deposited data

How the results depend on the processing

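Chow WT libraries are shallow and HFD Sirt3 AKI replicates 2 and 3 share a batch label, and these limit the comparisons with chow and with HFD Sirt3 AKI. Most values for the members are given beside the results. For miR-451a in HFD Sirt3 AKI over HFD WT the log2 fold change was -0.71 with DESeq2 size factors, -0.53 with library totals as with limma on TPM, -0.70 with only these groups, -0.52 with batch as a term, -0.38 in the larger batch alone, and -0.99 to -0.58 with 1 library left out, where the call ended without any chow WT library, HFD WT replicate 2 or 3, or HFD Sirt3 AKI replicate 3. In HFD WT over chow WT it was -0.34 with library totals, -0.36 with limma on TPM, 0.60 with no filter, 0.31 with only these groups (adjusted p = 0.0480 by edgeR), 0.45 in the larger batch, and 0.19 to 0.56 with 1 library left out. In HFD Sirt3 AKI over chow WT it was -0.87 with library totals, -0.88 with limma on TPM, 0.071 in the larger batch, and -0.59 to -0.074 with 1 library left out. miR-144-3p in HFD WT over chow WT was at -0.55 by library totals and by limma on TPM. In HFD Sirt3 AKI over HFD WT, miR-144-3p was at -1.05 and miR-144-5p at -1.07 with only these groups, and at -1.08 and -0.87 with batch as a term. The log2 ratio of miR-144-3p to miR-451a in HFD Sirt3 AKI over chow WT ranged from -0.82 to -0.39 with 1 library left out. The arm ratio was 0.94 (HFD WT over chow WT) and 0.99 (HFD Sirt3 AKI over chow WT) with no filter, 0.75 in the latter with batch as a term or the larger batch, and in HFD Sirt3 AKI over HFD WT it was -0.20 with either and -0.11 to 0.17 with 1 library left out. The cause was not tested.

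Same-numbered libraries deviated from their group means with correlations from -0.058 to 0.16, so the numbers were not taken to pair them. With the replicate block, miR-451a in HFD Sirt3 AKI over HFD WT was at -0.85 (adjusted p = 0.0590 by edgeR), no other member's call changed, and 31 microRNAs were called there.

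The count of microRNAs called in HFD Sirt3 AKI over HFD WT, 37, became 24 with DESeq2 size factors, 61 with DESeq2, 3 with only these groups, 1 with batch as a term, 23 in the larger batch and 13 to 102 with 1 library left out. Its split of 6 higher and 31 lower became 10 and 14 with DESeq2 size factors, 35 and 26 with DESeq2, 36 and 11 by library totals and 29 and 11 by limma on TPM. In HFD WT over chow WT, 89 higher and 67 lower became 20 and 143 by library totals, 21 and 156 by limma on TPM and 67 and 76 with DESeq2, and in HFD Sirt3 AKI over chow WT 84 and 81 became 40 and 129, and 45 and 139.

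Signs of the other named microRNAs turned as follows. miR-363-3p in HFD Sirt3 AKI over HFD WT was at 0.10 with DESeq2 size factors and with DESeq2, 0.28 with library totals, 0.26 with limma on TPM, 0.034 with no filter, 0.11 with only these groups, 0.25 with batch as a term, 0.40 in the larger batch and -0.21 to 0.29 with 1 library left out. miR-15a-5p was at -0.40 by library totals and by limma on TPM in HFD WT over chow WT. In HFD Sirt3 AKI over HFD WT it was at 0.016 with batch as a term and 0.16 in the larger batch. In HFD Sirt3 AKI over chow WT it was at 0.18 with no filter, 0.35 with batch as a term, 0.55 in the larger batch and -0.32 to 0.28 with 1 library left out. miR-486a-5p in HFD Sirt3 AKI over HFD WT was at 0.066 by library totals and 0.063 by limma on TPM. miR-93-5p in HFD Sirt3 AKI over chow WT was at -0.39 by library totals, -0.40 by limma on TPM, and -0.021 to 0.36 with 1 library left out. miR-101a-3p in HFD Sirt3 AKI over HFD WT was at -0.49 with batch as a term and -0.35 in the larger batch, and -0.34 to 0.30 with 1 library left out. The ratio to miR-451a of miR-15a-5p in HFD WT over chow WT ran from -0.17 to 0.048, and that of miR-93-5p in HFD Sirt3 AKI over HFD WT from -0.20 to 0.084, with 1 library left out.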
